A study of Saccharomyces cerevisiae with 4 samples.

Results

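The loci described here are the places on the nuclear chromosomes of budding yeast where tagged Swc4 gave a peak in both wild_type libraries and in neither yaf9d library. They were found by merging the nuclear peaks of 4 deposited lists wherever the intervals overlapped, which gave 1726 loci. Of these, 122 were called in both wild_type libraries alone, and they are called wild-type-only loci below. That is 7.07% of all merged loci, and the reverse pattern, called in both yaf9d libraries alone, made up 5.91%. The calls of all 4 libraries chose the members, so their number and their strength are descriptions and not a test of the genotype.

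The material is chromatin immunoprecipitation sequencing of Swc4 in Saccharomyces cerevisiae. All cells were haploids of the BY laboratory strain grown in rich YPD medium to mid-log phase with no treatment, and in all of them Swc4 carried 13 copies of the myc epitope, against which the antibody was directed. The groups are wild_type, with no further change named, and yaf9d, in which the titles name a deletion of YAF9, with 2 libraries each. The titles alone set the genotypes apart, since the genotype entry of the yaf9d libraries repeats the tag. Nothing in the labels ties the replicates to separate cultures, and their spread may therefore be technical only. The lists of wild_type replicates 1 and 2 held 884 and 704 nuclear peaks, and those of yaf9d replicates 1 and 2 held 616 and 1139. Absence from a list means no call in that library, not absence of Swc4. No library had a peak in the coding region of YAF9, so the peak lists do not check the deletion. No library had a peak at SWC4, and the YAF9 promoter had a peak in yaf9d replicate 2 alone.

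Swc4 is a subunit of 2 chromatin complexes, the SWR1 remodeler and the NuA4 histone acetyltransferase. SWR1 replaces histone H2A by the variant H2A.Z in the nucleosomes beside gene promoters, most of all the first nucleosome of the transcribed region, and NuA4 acetylates histones H4, H2A and H2A.Z. Yaf9 is shared by both complexes and has a YEATS domain that binds modified lysines of histone H3. In most yeast genes a nucleosome-depleted promoter lies upstream of that first nucleosome, which sits near the start of the gene.

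The wild-type-only loci lay at the beginnings of genes, with the summit inside the coding sequence. The offset of a summit was taken from the nearest coding start (the first base of a protein-coding gene), positive into the gene. The median offset was 101.5 bp in wild_type replicate 1 and 107 bp in wild_type replicate 2. The middle 50% of summits fell between 37 and 216 bp in replicate 1 and between 40.5 and 236 bp in replicate 2. Summits lay downstream of the nearest start in 81.1% and 77.9% of the loci, and within the first 300 bp of the gene in 63.1% and 57.4%. At 59 of the 122 loci (48.4%) the summits of both libraries lay in the first 300 bp of the same gene.

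The median summit of loci called in all 4 libraries lay upstream of the start, although 34.3% and 36.3% of these summits in wild_type lay inside a gene. For these 251 loci the median offset was -232 and -237 bp in the wild_type libraries and -269 and -251 bp in the yaf9d libraries. Their summits lay in the first 300 bp of a gene in 20.3% and 21.9% of cases in wild_type. Without loci over the promoter of a ribosomal protein gene the medians in wild_type were -286 and -305.5 bp (174 loci). The 102 loci called in yaf9d alone had medians of -315.5 and -301.5 bp in their own libraries. The position did not enter the rule, but no test over loci was made, since loci of 1 library are not replicates.

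**Figure D1:**
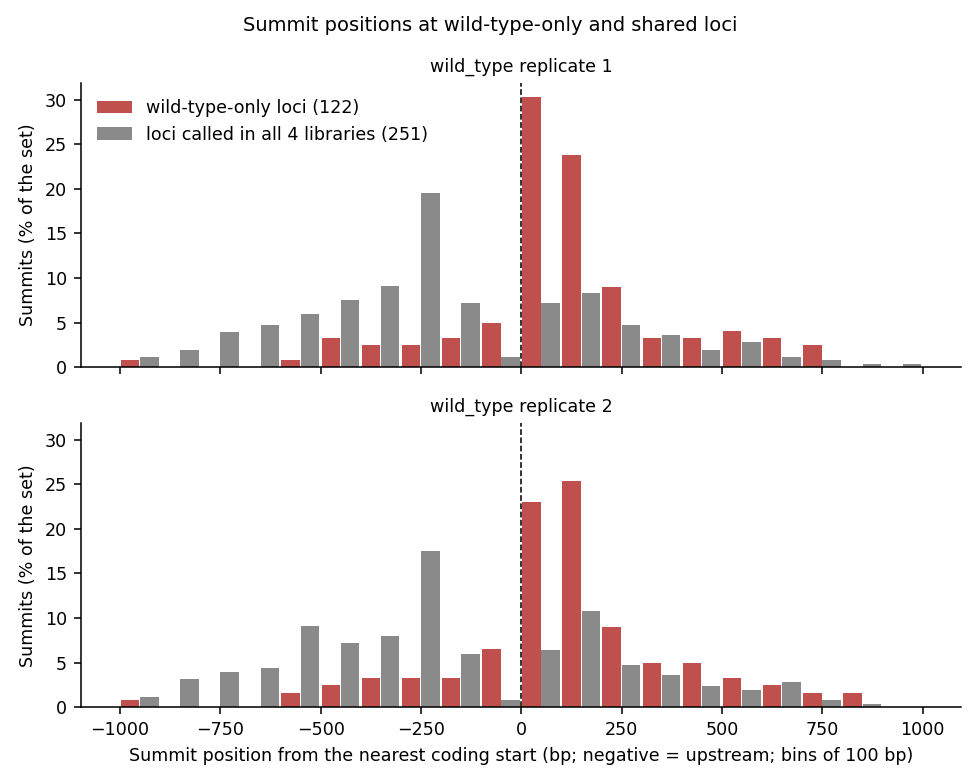
Position of the strongest summit of each locus relative to the nearest coding start (x axis, bp, in bins of 100 bp; negative is upstream), as the percent of the set (y axis), for the 122 wild-type-only loci and the 251 loci called in all 4 libraries. The first 100 bp of the gene held 30.3% and 23.0% of the wild-type-only summits in replicates 1 and 2, and the bin from 300 to 200 bp upstream held 19.5% and 17.5% of the shared ones.

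Of the loci called in all 4 libraries, 62 had a mean rank in the wild_type lists within the middle 50% of the wild-type-only range (35.6% to 71.3% of the list). Their median offsets in wild_type were 76.5 and 110.5 bp, with 53.2% and 61.3% of summits inside a gene. The first 300 bp of a gene held 40.3% and 38.7% of their summits. The 63.1% and 57.4% of the wild-type-only loci come from all 122, not only those in that range of rank. Among the latter the stronger 61 had 73.8% and 72.1% and the weaker 61 had 52.5% and 42.6%. In the yaf9d libraries the same 62 loci had medians of -233 and -212.5 bp, with quartiles of -447 and 147.5 bp and of -436 and 212 bp. The wild_type quartiles were -336 and 184.5 bp and -423 and 248.5 bp, so the ranges overlapped widely. In yaf9d 32.3% and 40.3% of the summits lay inside a gene, and 17.7% and 25.8% in the first 300 bp. These 62 loci were chosen by their rank in wild_type alone, and the difference was not tested. Loci called in both wild_type libraries and in exactly 1 yaf9d library had medians of 185 and 155 bp in wild_type. The first 300 bp held 46.1% and 45.1% of their summits. In yaf9d, the 84 of these loci called by replicate 2 had a median of 270 bp there, with 68 of 84 summits inside a gene, and the 18 called by replicate 1 had a median of -60.5 bp.

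Over whole lists, the share of all nuclear summits within the first 300 bp of a gene was 42.8% and 32.1% in wild_type and 14.8% and 21.5% in yaf9d. The mean was 37.4 ± 7.54% in wild_type and 18.1 ± 4.76% in yaf9d (SD over the 2 libraries), a difference of 19.3 percentage points that exceeded the spread between replicates. The exact two-sided permutation test over the 4 libraries gave p = 0.333, which is the smallest p that 2 against 2 allows, so no difference could have passed 0.05. Other measures of position over whole lists did not separate the genotypes. The median offset was 105.5 and 64 bp in wild_type and -261 and 142 bp in yaf9d replicates 1 and 2. Summits in a coding gene made up 71.8% and 58.7% in wild_type and 34.6% and 67.9% in yaf9d, so yaf9d replicate 2 lay within or beyond the wild_type values. With the wild-type-only loci left out the wild_type shares in the first 300 bp were 39.4% and 26.8%, and each still lay above both yaf9d values (mean 33.1 ± 8.92%, SD, n = 2; exact permutation p = 0.333). The yaf9d lists were left whole in this comparison. They kept the loci called in yaf9d alone, of whose summits 11.8% and 13.7% lay in the first 300 bp. The comparison is therefore one-sided.

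The loci were of intermediate width and mostly 1 peak in each library. The median width was 664.5 bp, with a range from 363 to 1837 bp, against 859 bp for loci called in all 4 libraries and 485 bp for all merged loci. A locus spans all peaks merged into it, so its width can grow with the number of lists that called it. The strongest peak itself had a median width of 561.5 bp in wild_type replicate 1 and 565.5 bp in replicate 2. A locus held 1 peak in each wild_type library in 121 of 122 cases. The summits of the 2 wild_type libraries lay a median of 24 bp apart, and within 50 bp of each other at 81 loci (66.4%). Loci called in all 4 libraries gave a median of 19 bp and 70.5%. The summits were within 300 bp at 106 of the wild-type-only loci. The largest distance was 668 bp, so some loci join calls that need not be the same site.

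Most wild-type-only loci reached into a promoter, taken as the 500 bp upstream of a coding start. They touched at least 1 promoter in 105 of 122 cases (86.1%, exact 95% binomial interval 78.6 to 91.7, counting error only), against 60.5% of all merged loci and 90.4% of loci called in all 4 libraries. There were 40 loci over 1 promoter, 53 over 2, 11 over 3 and 1 over 4. Loci called in yaf9d alone touched a promoter in 63.7% of cases, with 14 of 102 over 2 promoters. The sets differed in width, with medians given above and 424 bp for loci called in yaf9d alone. A wider locus can reach more promoters. Loci called in both wild_type libraries and exactly 1 yaf9d library, with a median of 740.5 bp, touched a promoter in 71.6% of cases. The part of width in these shares was not tested. The summit itself lay in a coding gene in 84.4% and 81.1% of the wild-type-only loci, against 33.1% and 35.9% of loci called in all 4 libraries. Of the few summits between genes, 12 of 17 in replicate 1 and 13 of 20 in replicate 2 lay between divergent genes. For loci called in all 4 libraries these were 84 of 142 and 79 of 136, so most lay between divergent genes there too.

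Of the 122 loci, 5 overlapped an RNA gene (4.10%) and 4 of them a tRNA gene (3.28%). Over all merged loci the shares were 8.40% and 6.55%, and over loci called in both wild_type libraries and exactly 1 yaf9d library 10.8% and 2.94%. They were 18.7% and 14.7% for loci called in all 4 libraries and 26.5% and 25.5% for loci called in yaf9d alone. The best-ranked of the 5 covered SNR53, a small nucleolar RNA, and the tRNA gene YNCE0004C, with folds of 2.10 and 2.54. The others covered the tRNA genes YNCI0010C beside EST3 (2.0 and 1.80), YNCP0024C (1.74 and 1.51) and YNCK0018C (1.33 and 1.52), and the small nucleolar RNA SNR58 (1.90 and 1.77). Copies of many tRNA genes are near-identical in sequence, and the placement of reads that match several copies is not stated.

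Enrichment was moderate. The fold is the ratio of summit pileup to local background in the deposited lists, and pairs of folds are given for wild_type replicates 1 and 2 in that order. The median fold was 1.90 in replicate 1 and 1.79 in replicate 2, and the highest were 3.49 and 3.07. A fold of 2 or more was listed for 47 loci in replicate 1, 37 in replicate 2 and 27 in both, against 146 of 251 loci called in all 4 libraries. Ranks were taken within each list, with 0% as the strongest peak. The median rank was 43.6% in replicate 1 and 61.6% in replicate 2. None of the 122 loci was in the strongest 10% of both lists, where 53 of the shared loci lay, and 3 were in the weakest 10% of both.

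**Figure D2:**
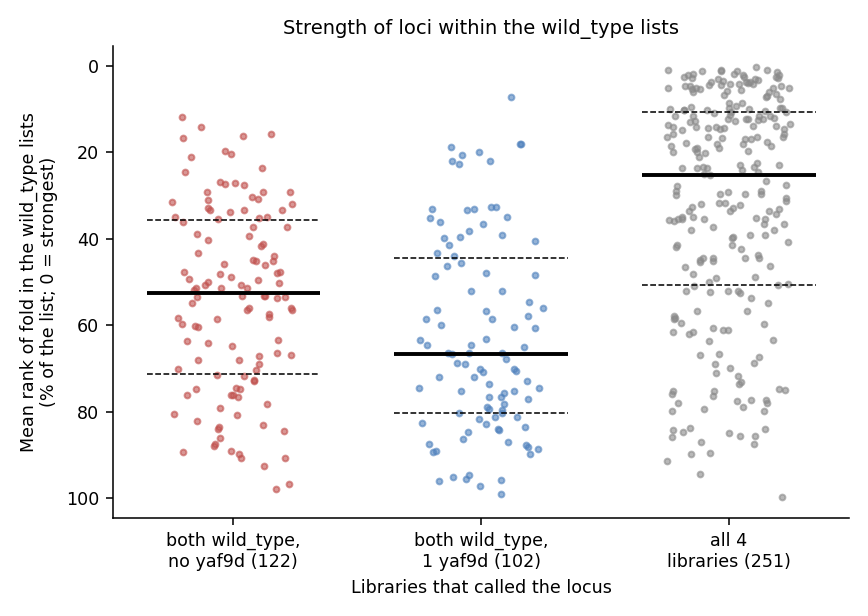
Mean rank of fold over the 2 wild_type lists for each locus (y axis, percent of the list, 0 is strongest and drawn at the top), grouped by the libraries that called it. Solid lines are medians (52.6%, 66.6% and 25.2%) and dashed lines quartiles, and points are spread sideways for legibility.

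The 102 loci called in both wild_type libraries and exactly 1 yaf9d library had a median mean rank of 66.6%, weaker than the 52.6% of the wild-type-only loci, with median folds of 1.66 and 1.74. Ranked by −log10 q-value, the medians were 53.5% for these loci and 54.3% for the wild-type-only loci. The yaf9d call in these came from replicate 2, which has the longer list, at 84 loci and from replicate 1 at 18.

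The lists end at a −log10 q-value of about 1.3, with 1.31 and 1.31 as the lowest in wild_type and 1.33 and 1.31 in yaf9d. The lower of the 2 wild_type values of a locus had a median of 5.92, against 16.03 for loci called in all 4 libraries. It was under 2 at 9 loci, under 3 at 25 and under 5 at 51, and it was 10 or more at 29. The member nearest to the end of a list lay at SRB2, a Mediator subunit, and NCP1, a cytochrome P450 reductase, with 10.9 and 1.31. Next came those at SWS2, a protein of the mitochondrial ribosome (1.97 and 1.38), and KAE1, which acts in tRNA modification (1.47 and 3.73). GPP1, a glycerol-phosphate phosphatase (1.52 and 5.0), and ATO3, a membrane transporter (5.44 and 1.55), followed. Among the loci just outside the rule was the locus at NPA3, which had 10.2 and 6.83 in wild_type and a yaf9d replicate 2 value of 1.37. The locus at PSP1 had 2.38 and 2.06 in wild_type and 1.49 in yaf9d replicate 1.

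The nearest yaf9d peak lay a median of 3682 bp away, with quartiles of 1253 and 6743 bp. It was within 200 bp at 2 loci, within 500 bp at 10 and within 1000 bp at 26. The shortest distance, 49 bp, was at the SRB2 and NCP1 locus. The longest, 32124 bp, was at MTO1 and ADE57. To replicate 1 of yaf9d alone the median distance was 8821.5 bp and to replicate 2 it was 3875 bp. By the rule no yaf9d peak can overlap a member, which in large part fixes how few yaf9d peaks the promoters under members can have. Of the 181 protein-coding genes with a promoter touched, 180 had no yaf9d peak anywhere in the promoter. The exception was DSN1, whose promoter a separate peak touched in yaf9d replicate 2. In both wild_type libraries the peak itself reached 160 of the promoters without a yaf9d peak.

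All 16 nuclear chromosomes held members, from 18 on chromosome IV and 16 on chromosome VII to 2 each on chromosomes I, VI and XII. Chromosome XII stood lowest, with 2 of its 154 loci (1.3%) and 1.86 members per Mb. Chromosome IX had 7 of 67 (10.4%) and chromosome VII had 16 of 160. There were 6 neighbouring pairs within 5000 bp. In 2 of them both loci touched the same promoter, that of SUI3 (348 bp apart) or that of BAT1 (371 bp apart). Within 30 kb of a chromosome end lay 5 members (4.10%), against 8.37% of loci called in all 4 libraries. The count is small, the share over all merged loci is not given here, and no difference between such shares was tested.

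The best-ranked locus overlapped the start of SWR1, the ATPase of the SWR1 remodeler, and also touched the promoter of RQC1, a ribosome quality control factor (chromosome IV, 1135653 to 1136341, 1-based; the genome build is not named). Summit pileups recovered from the lists, on the scale the caller used, were 111 over a background of 31.1 in replicate 1 and 89 over 28.3 in replicate 2. Its summits lay at 104 and -33 bp from the start of SWR1. SWR1 was the 1 gene of 14 in the SWR1 complex list with a promoter touched, and 0 of 13 NuA4 and 0 of 15 INO80 genes had one. Over all nuclear protein-coding genes the share was 3.02%, at which lists this short would hold few such genes or none.

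**Figure D3:**
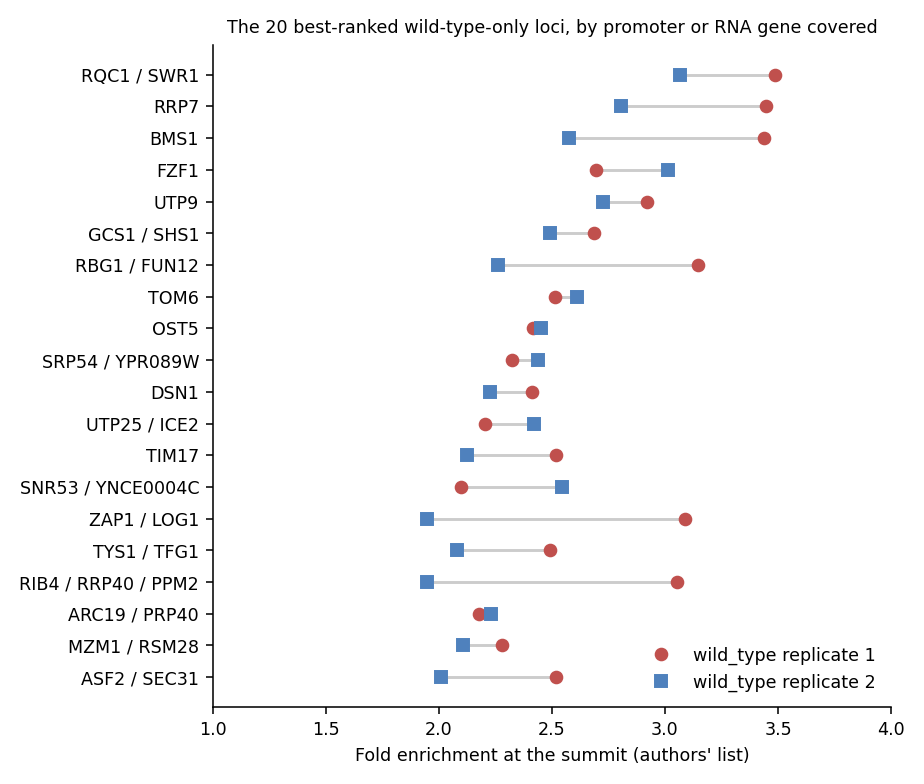
Fold enrichment given by the authors in wild_type replicates 1 and 2 (x axis) for the 20 wild-type-only loci with the best mean rank, each labelled by the promoters or RNA genes it covers. The folds run from 1.95 to 3.49, and by the rule none of these loci had a peak in yaf9d.

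Genes for ribosome assembly held 3 of the 5 best-ranked members. RRP7, a small-subunit assembly factor (chromosome III, 65067 to 66186), had folds of 3.45 and 2.81 with summits 47 and 48 bp inside the gene. BMS1, a GTPase of the small-subunit processome (chromosome XVI, 142777 to 143292), had 3.44 and 2.58 at 114 and 124 bp. UTP9, of the same processome (chromosome VIII, 491772 to 492165), had 2.92 and 2.73 at 19 and 2 bp. In these 3 the summits sat close to the coding start in both libraries.

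Further members over ribosome assembly promoters were weaker. UTP25, a processome factor, shared a locus with ICE2, an endoplasmic reticulum protein (2.21 and 2.42). BRX1, needed for the large subunit, shared one with MDM20, a subunit of an N-terminal acetyltransferase (2.01 and 2.27), with both summits inside MDM20. DBP6, a helicase of large-subunit assembly, lay under a locus that also covered promoters of ARC35, MRPS12 and RSM19 (2.61 and 1.49, width 1597 bp). Its summits were 72 bp inside RSM19 in replicate 1 and 139 bp inside MRPS12 in replicate 2. NOG1, a nucleolar GTPase, and SEC62 shared a locus (2.03 and 1.4), with its summits 508 and 505 bp inside SEC62. The locus touching the promoter of DBP7, another helicase, had 1.62 and 1.67, with both summits inside RPC37. That touching the promoter of KRR1, a small-subunit factor, had 1.47 and 1.45, with its summits in MIC10 and FYV5. The ALB1 locus, of a shuttling large-subunit factor, had 1.41 and 1.41, with summits at 99.2% and 98.1% of the length of ALB1. PXR1, which acts in rRNA and small nucleolar RNA maturation and is outside the lists, had 2.17 and 2.12. In all, 5 of 70 small-subunit and 5 of 68 large-subunit assembly genes were touched (7.14% and 7.35%), against 3.02% of all nuclear protein-coding genes.

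Of 138 ribosomal protein genes, 2 had a promoter touched by a wild-type-only locus (1.45%) and 82 by a locus called in all 4 libraries (59.4%). Over all genes the shares were 3.02% and 6.65%. In wild_type replicate 1 no peak reached the promoter of either gene, so both count through the replicate 2 peak. RPL9B had folds of 2.04 and 2.23 and some of the highest −log10 q-values of the set, 55.8 and 53.3, and its summits lay 192 and 191 bp inside the gene. RPL9B has a near-identical partner, RPL9A, and the placement of shared reads is not stated. RPL11B shared a locus with MRP13 (1.62 and 1.77).

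Of 19 genes for aminoacyl-tRNA synthetases and their cofactor ARC1, 5 were touched (26.3%), while 1 was under a locus called in all 4 libraries. Over all genes the shares were 3.02% and 6.65%, here and beside the lists that follow. TYS1, the tyrosine enzyme, shared a locus with TFG1, a subunit of transcription factor TFIIF (2.49 and 2.08), with summits 151 and 153 bp inside TYS1. CDC60, the leucine enzyme, had 2.20 and 1.82 at 121 and 201 bp. DED81, the asparagine enzyme, had 2.03 and 1.75 at 45 and 92 bp, and the same locus covered the promoter of YHR020W, a prolyl-tRNA synthetase named after its values were seen. KRS1, the lysine enzyme, shared a locus with EHD3 (1.87 and 2.17). Its summits lay at 103 and -169 bp from the EHD3 start, and neither was in the KRS1 promoter. ARC1 lay under a locus with RMD9 and MLC1, a myosin light chain (2.36 and 1.72), whose summits were in MLC1.

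Of 38 translation factors 5 were touched (13.2%), and 4 were under a locus called in all 4 libraries. FUN12, the initiation factor eIF5B, and RBG1, a ribosome-binding GTPase, shared a locus on chromosome I with 3.15 and 2.26, the summits 97 and 101 bp inside FUN12. SUI3, the beta subunit of eIF2, was touched by a pair of loci with 2.04 and 1.79 and with 1.86 and 1.90. The first had its summits in YAR1 and the second in SUI3 itself. GCD11, the gamma subunit of eIF2, had 1.88 and 1.80. GCD1, a subunit of its exchange factor eIF2B, shared a locus with RPT4 (2.05 and 1.66). No counts over lists were tested, and the lists were chosen with earlier results known.

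**Figure D4:**
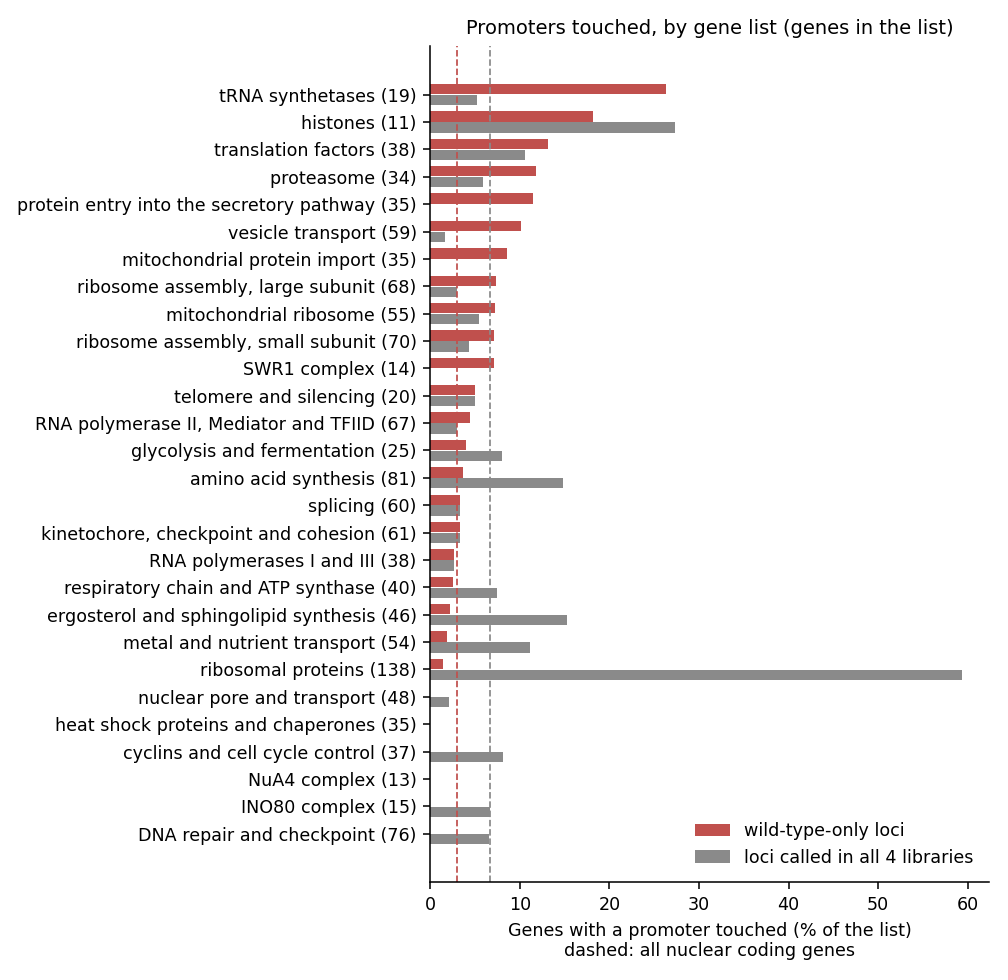
Percent of the genes of each list (y axis, number of genes in brackets) with a promoter touched by a wild-type-only locus or by a locus called in all 4 libraries (x axis). Dashed lines give the same percent over all nuclear protein-coding genes (3.02% and 6.65%). Aminoacyl-tRNA synthetase genes reach 26.3% for wild-type-only loci, and ribosomal protein genes 59.4% for shared loci.

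Of 35 genes for protein entry into the endoplasmic reticulum, 4 were touched (11.4%) and 0 by loci called in all 4 libraries. OST5, a subunit of oligosaccharyltransferase, had 2.42 and 2.45, with both summits in the neighbouring MTC3. SRP54, of the signal recognition particle, shared a locus with YPR089W (2.32 and 2.44), with both summits inside YPR089W. SEC62, of the translocon, was named above, and SWP1, another oligosaccharyltransferase subunit, had 1.69 and 1.45.

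Of 59 vesicle transport genes 6 were touched (10.2%), and 1 by a locus called in all 4 libraries. GCS1, which stimulates GTP hydrolysis by ARF, shared a locus with SHS1, a septin (2.69 and 2.49), with summits 88 and 73 bp inside GCS1. SEC31, a COPII coat subunit, shared one with ASF2 (2.52 and 2.01), and its summits lay at -86 and -87 bp from the SEC31 start. SEC23, also of the COPII coat, lay in a locus with SMX3 and DPM1 (1.91 and 1.75). The summit of that locus was in SEC23 in replicate 1 and in SMX3 in replicate 2, 665 bp apart. The promoters of the paralogous GTPase genes YPT31 (1.97 and 1.73, in a locus with FIR1) and YPT32 (1.64 and 1.54) were both touched. EMP24, a cargo receptor, shared a locus with YIP4 (1.82 and 1.45), with both summits inside YIP4.

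TOM6, of the outer membrane translocase, had 2.51 and 2.61 at 35 and 51 bp inside the gene. TIM17, of the inner membrane translocase, had 2.52 and 2.12 at 86 and 141 bp. The locus at TIM12, a small import protein, had 2.09 and 1.84 and a width of 1837 bp, the widest of the set. Its summit lay 96 bp inside TIM12 in replicate 1 and inside PHO3 in replicate 2, 546 bp apart. TOM6, TIM17 and TIM12 are 3 of 35 import genes (8.57%), and 0 of the list were under loci called in all 4 libraries.

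Of 55 mitochondrial ribosomal protein genes on the list 4 were touched (7.27%). MRPL8 shared a locus with COA3, an assembly factor of cytochrome oxidase, and LAS21 (1.99 and 2.24). The summit of that locus was 75 bp inside MRPL8 in replicate 1 and 89 bp inside COA3 in replicate 2. MRPS18 shared one with MCK1, a protein kinase (1.83 and 2.05), and MRPS12 and MRP13 were named above. RSM28 (2.28 and 2.11, with MZM1), RSM19 and MNP1 (1.91 and 1.81, with RPB9) encode proteins of the same ribosome. So do IMG2 (1.55 and 1.5, in a locus of 1512 bp) and SWS2 (1.44 and 1.38). The promoters of IMG2 and SWS2 were reached in replicate 2 alone, with the summits inside RSA4 and inside EOS1. All these genes were outside the list and were named after their values were seen. ATP18, a subunit of ATP synthase, shared a locus with TDA9 (1.87 and 2.24) and was the 1 of 40 respiratory genes touched, in replicate 2 alone. MTO1, which acts in mitochondrial tRNA modification, shared a locus of 1490 bp with ADE57 (1.33 and 1.96), its promoter reached in replicate 2 alone. Other mitochondrial genes touched were COX18, MIP1, the mitochondrial DNA polymerase, and FIS1, of mitochondrial fission.

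Proteasome genes had 4 of 34 promoters touched (11.8%) and 2 under loci called in all 4 libraries. PRE5 had 2.11 and 1.95 with summits 129 and 106 bp inside the gene. RPT4 (2.05 and 1.66) shared its locus with GCD1, and PRE9 (1.75 and 1.70) shared one with LSB1, its promoter reached in replicate 2 alone. The replicate 2 summit of the PRE9 locus lay inside CAF130, 549 bp from that of replicate 1. RPN11, the deubiquitinase of the lid, shared one with YPI1 (1.55 and 1.62), with summits 148 and 141 bp inside RPN11.

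DSN1, a kinetochore subunit, had 2.41 and 2.23 with summits 40 and 83 bp inside the gene, and CTF19, an inner kinetochore subunit, shared a locus with VTC3 (1.69 and 1.67). These are 2 of 61 genes of kinetochore, checkpoint and cohesion (3.28%, near the 3.02% of all genes). EST3, a telomerase subunit, was 1 of 20 telomere and silencing genes. DNA repair and checkpoint genes had 0 of 76, cell cycle genes 0 of 37, nuclear pore and transport genes 0 of 48, and heat shock and chaperone genes 0 of 35. The last list leaves out the chaperonin gene CCT4 and the prefoldin gene GIM3, whose promoters were touched.

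HTA1 and HTB1, the divergent genes of histones H2A and H2B, were 2 of 11 histone genes touched, by the replicate 2 peak alone, in a locus of 1835 bp that also covered the promoter of ADK1, adenylate kinase (1.59 and 1.56). The replicate 1 peak of that locus did not reach the histone promoters. Its summits lay at -227 and -222 bp from the ADK1 start. Transcription genes with a promoter touched were RPB9 of RNA polymerase II, TFG1, SRB2 (1.98 and 1.32) and BDP1 of transcription factor IIIB (1.78 and 1.51). RPB9, TFG1 and SRB2 were 3 of 67 genes of RNA polymerase II, Mediator and TFIID (4.48%). BDP1 was 1 of 38 genes of RNA polymerases I and III (2.63%). Splicing genes were PRP40, in a locus with ARC19 (2.18 and 2.23), and SMX3, 2 of 60 (3.33%). All genes gave 3.02%.

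Amino acid synthesis had 3 of 81 genes (3.70%), near the 3.02% of all genes, and 14.8% were under loci called in all 4 libraries, where all genes gave 6.65%. BAT1, a branched-chain aminotransferase, was touched by a pair of loci with 1.79 and 1.94 and with 1.32 and 1.67. TRP1 had 1.73 and 1.78, and LYS4 shared a locus with RTN1 (1.67 and 1.75). ERG4, of ergosterol synthesis, shared one with PDR1, a drug resistance regulator (1.86 and 1.78), and was 1 of 46 (2.17%). MEP1, an ammonium permease, shared a locus with YGR121W-A and YGR122W (1.68 and 2.01) and was 1 of 54 transport genes (1.85%). GPM1, phosphoglycerate mutase, had 1.52 and 1.19 and was 1 of 25 genes of glycolysis and fermentation, its promoter reached in replicate 1 alone.

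In total 62 of the 181 genes belonged to at least 1 of the 28 lists and 119 to none, and 56 loci touched a listed gene. Among the others, the locus at FZF1, a sulfite tolerance regulator, had 2.69 and 3.01 with its summits inside ZRT1, a zinc transporter gene (chromosome VII, 21021 to 22092). ZAP1, the zinc-responsive activator, shared a locus with LOG1 (3.09 and 1.95), whose gene held the summits. RRP40, an exosome subunit, shared one with RIB4, of riboflavin synthesis, and PPM2 (3.05 and 1.95).

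Among chromatin and transcription genes outside the lists was RSC8, a subunit of the RSC remodeler, with IRC5 (2.32 and 2.06). Others were IOC2, of an ISW1 complex, with KIN2 (2.49 and 1.91), and RCO1, of the Rpd3S deacetylase. RCO1 shared a locus with IRC21 and SDD2 (2.58 and 1.84), with both summits inside SDD2. SPT4, LGE1, of histone H2B ubiquitination (2.20 and 1.73), SET5, a histone methyltransferase, and DLS1, of an ISW2 complex, were further chromatin and transcription genes. Cytoskeletal genes were ARC19, ARC35 and ARP3 of the Arp2/3 complex (ARP3 with TOR1, 2.72 and 1.72), MLC1 and its partner MYO2, a myosin, and GIM3, a prefoldin subunit, with YCK2 and INN1 (2.06 and 2.17). CCT4 encodes a chaperonin subunit, and GON7 and KAE1 encode subunits of the KEOPS complex. These genes were grouped after their values were seen.

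The remaining promoters belonged to genes of varied function. Sugar attachment, membrane and wall genes were KTR5, PMT2, MNN11, GAS1, DPM1, LAS21 and SLC1. Traffic and vacuole genes were APM4, VPS1, SNC2, TRS120, YIP4, VMA4, VAC7, VTC3, RTN1 and SNN1. RNA and translation-related genes were PAP1, EDC2, SQT1, TRM112, EFM4, PPM2, RQC1 and RMD9. Metabolic genes were GDH2, ADE57, ADE8, PRS5, ADK1, NCP1, GPP1, TGL3, EHD3 and GRX1. Regulators and kinases were CRZ1, PDR1, STB3, MCK1, TOR1, YCK2, KIN2, NNK1, FPK1, YPI1 and TDA9. The others were MKT1, CFD1, STS1, MZM1, MRS2, ATG36, KEL2, FRT1, FIR1, LSB1, LSB5, RFU1, MPM1, PMP2, GTT3, MTC1, ATO3, FYV5, TDA4, TLD1, IRC5, IRC21, SDD2, SDD3, ASF2, ICE2, LOG1, SHS1, INN1 and MDM20, and the open reading frames YBR090C, YDL144C, YDR169C-A, YDR274C, YER034W, YER188C-A, YGR121W-A, YGR122W, YMR315W and YOL097W-A.

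Members over no promoter numbered 17, and in 15 of these both summits lay inside a coding gene. Some had high pileups over a high background. FBA1, the glycolytic aldolase gene, had summit pileups of 820 and 602 over backgrounds of 558 and 445 (folds 1.47 and 1.35). TPI1, triose phosphate isomerase, had 567 and 474 over 363 and 332, and GCN4, a transcriptional activator gene, had 491 and 385 over 301 and 241. The median over all 122 members was 139 and 106 over backgrounds of 71.1 and 61.0. At FBA1 the −log10 q-values were 22.3 and 10.2 beside these low folds. The part of background in these calls was not tested.

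**Figure D5:**
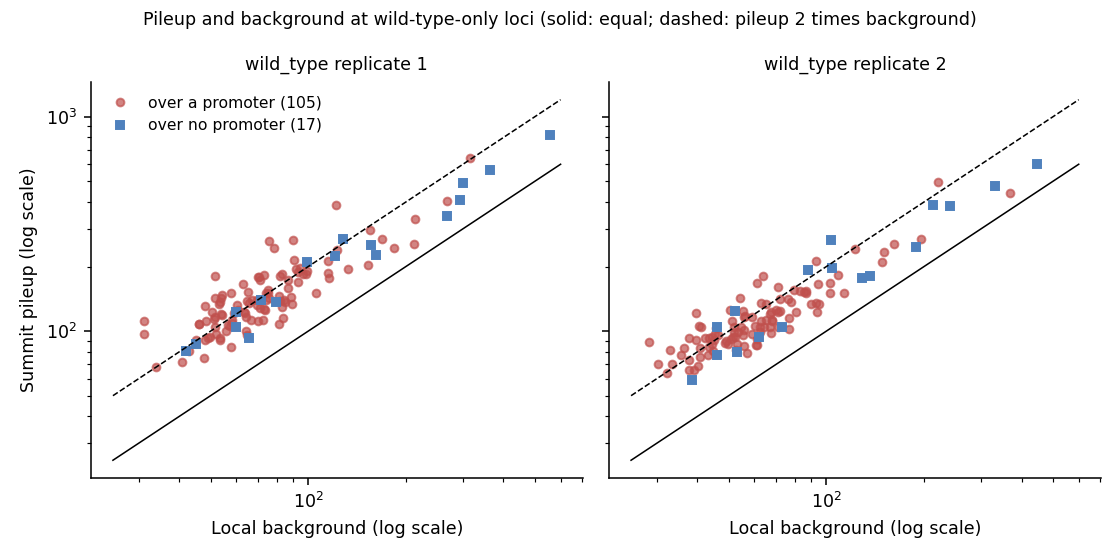
Summit pileup (y axis, log scale) against local background (x axis, log scale) at the wild-type-only loci in each wild_type library, both recovered from the listed fold and p-value and on the caller's scale. Loci over no promoter reach a background of 558 in replicate 1, and most loci lie between the line of equality and the line of 2 times the background or just above the latter.

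The rest of the promoterless members lay in IPP1 (1.84 and 1.89), TIF6 (1.93 and 2.34), STP4 (1.91 and 1.66), RAD57 (1.91 and 1.52), HPF1 (1.4 and 1.81), PRE7 (1.70 and 1.42), YNL190W (1.61 and 1.32), SMD1 (1.41 and 1.5), UTR2 (1.39 and 1.37) and ALD5 (1.29 and 1.3). A locus across RPS20 and YLF2 had 2.11 and 2.19 with its summits in different genes. YBL005W-B (2.03 and 2.26) belongs to a Ty retrotransposon, which has near-identical copies. These loci were given values after their values were seen, to account for every member over no promoter.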

How the data were processed

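Peak lists of 4 Swc4 libraries were used (wild_type and yaf9d, 2 each; grouped by sample title). The submitters' processing notes name MACS2 (version 2), SAMtools 1.4 and BWA 0.7.15-r1140. Their roles, and the build, control and threshold, are not stated in the labels. Every deposited list holds, per summit, the fold (ratio) over local background and the p-value and q-value, both as −log10. The deposited score was not used further, and 39 peaks outside the 16 nuclear chromosomes in yaf9d replicate 2 were left out.

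Peaks of all lists were merged by 1 bp or more of overlap, and the strongest peak by fold stood for a library in a locus (Python 3.11.15, pandas 2.3.3, SciPy 1.17.1). Pileups were recovered by taking the fold as pileup plus 1 over background plus 1 and the p-value as a Poisson upper tail, within 0.001; all 122 members gave one in each wild_type library. Read totals are not in the lists, so depth is known only through these pileups. Merging and recovery were checked on simulated data.

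Genes were placed with the RefSeq table of assembly R64, with strand read from systematic names. Its coordinates are not printed. Of 276 summits within 300 bp of a tRNA gene's middle, 88.8% were within 100 bp. Of 1295 list entries, 1 had no match. No sequence file was used here.

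Members, lists and tests were chosen with earlier results of these data known. Named with values were the 20 best-ranked members, the 5 nearest to the threshold, the 5 widest, those over listed genes and those over RNA genes. Genotypes were compared only by an exact permutation test of library values. Alternatives were q-value, fold and list-length limits, overlap rules, summit windows, promoter definitions and leaving out each library.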

Additional observations from a re-analysis of the deposited data

How the results depend on the processing

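For the share of all summits in the first 300 bp, the differences between same-numbered libraries were 28.0 and 10.6 points. With a replicate block the mean difference was 19.3 points (exact permutation p = 0.5, the smallest that 2 pairs allow), and nothing in the labels says that the numbers pair the samples. Under limits on q-value, fold and list length, chosen after seeing the data, the difference ran from 20.8 to 22.5 points, and from 14.0 to 24.6 points leaving out 1 library. The other results come from no test. With peaks of fold 2 or more in all lists, 35 loci were left (27 of them overlapping the 122), with a median width of 584 bp, a median rank of 68.8%, 49 genes touched, a median distance of 10694 bp to a yaf9d peak, summits 16 bp apart and a median offset of 73.5 bp. Summit windows gave 124 loci, a median width of 319.5 bp and 74.2% over a promoter. Asking for a promoter that holds a wild_type summit left 48.4% of loci and 73 genes. Lists of equal length, 616 peaks each, gave 113 loci, of which 89 overlapped the 122. Leaving out 1 library in turn gave 140 to 390 loci, the most without wild_type replicate 2 (390), then without wild_type replicate 1 (225), yaf9d replicate 2 (206) and yaf9d replicate 1 (140). Median widths then ran from 419.5 to 691.5 bp, median ranks from 53.1% to 59.8%, shares over a promoter from 71.0% to 85.7%, genes touched from 204 to 415 and distances from 3187.5 to 7196 bp. The offset, for which alternatives were chosen after seeing the data, then ran from 100 to 134.5 bp. Its lowest value under any alternative was the 73.5 bp at a fold of 2 or more. The cause of these shifts was not tested, beyond there being fewer lists or peaks. Without read totals, loci just under the threshold of a list cannot be told from loci without signal.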

Other observations

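The 251 loci of wild_type replicate 1 alone had a median offset of 148 bp into the nearest gene, with 92.4% of summits in a coding gene and 57.8% in the first 300 bp. The 103 loci of wild_type replicate 2 alone had a median of 177 bp with a wider spread (quartiles -255 and 494 bp), 78.6% in a coding gene and 31.1% in the first 300 bp, against 63.1% and 57.4% at the wild-type-only loci. Within the wild-type-only loci, the stronger 61 had median offsets of 96 and 93 bp and the weaker 61 of 139 and 122 bp in replicates 1 and 2. The first 300 bp of a gene held 73.8% and 72.1% of the summits of the stronger loci, and 52.5% and 42.6% of those of the weaker ones. The 27 loci with a fold of 2 or more in both libraries had 85.2% and 77.8% there.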
